A study of Mus musculus with 2 samples.

Results

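Oligodendrocyte precursor cells (OPCs) are described here: 69 of 11605 cells kept from mouse hippocampus, 40 of 6327 in the Mr1+/+ library and 29 of 5278 in the Mr1-/- library. They were chosen by their own transcripts. A barcode was kept with 300 or more genes and at most 10% of its unique molecular identifiers (UMIs, each standing for 1 captured RNA molecule) from mitochondrial genes. It was called an OPC if it held UMIs of 4 or more of Pdgfra, Cspg4, Vcan, C1ql1, Gpr17, Neu4, Lhfpl3 and Matn4, and of at most 2 of Mog, Mag, Ermn, Cldn5, Vtn, Kcnj8, Aqp4 and C1qa. The levels of those 16 genes are therefore descriptions of the choice and not findings.

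The study set untreated Mr1+/+ mice beside untreated Mr1-/- mice, both aged 7 months. Mr1 encodes a class I-like molecule that presents small metabolites to mucosal-associated invariant T cells. Hippocampal cells were freed with a kit made for primary neurons, and DAPI- Draq5+ events, which are live nucleated cells, were sorted into droplets and read from the 5' end of each transcript. The series title speaks of non-neuronal cells. Each genotype had 1 library, and the sources used here do not give how many mice it came from or their background strain. Differences between the libraries therefore have no replicate check, and no test was made; every interval below is a 95% interval for counting error only.

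OPCs are the dividing, migrating cells that make oligodendrocytes throughout life. Their growth depends on PDGFRA, the receptor for platelet-derived growth factor, and they receive synaptic input through glutamate receptors. When a precursor commits to the lineage it loses Pdgfra, passes through a short stage marked by Gpr17, Bmp4, Enpp6 and Fyn, and then switches on the genes of myelin.

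The results below turn on which genes mark precursors with Pdgfra and which mark those without it, so the 250 bases before the annotated start of 4 such genes are shown. The sequences are from RefSeq on build GRCm38.p6, read 5′ to 3′ on the plus strand, at chr5:75152001-75152250 for Pdgfra, chr4:154960673-154960922 for Hes5, chr8:46986637-46986886 for Enpp6 and chr10:39369549-39369798 for Fyn. Capitals mark letters searched for on both strands: CAGCTG (an E-box), ACAAAG (a SOX motif) and TGGGAA (an RBPJ motif).
Pdgfra: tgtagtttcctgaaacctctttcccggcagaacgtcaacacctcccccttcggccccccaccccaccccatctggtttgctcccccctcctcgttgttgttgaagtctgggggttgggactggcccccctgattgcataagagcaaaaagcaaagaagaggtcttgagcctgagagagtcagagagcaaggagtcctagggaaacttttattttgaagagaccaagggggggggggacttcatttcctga
Hes5: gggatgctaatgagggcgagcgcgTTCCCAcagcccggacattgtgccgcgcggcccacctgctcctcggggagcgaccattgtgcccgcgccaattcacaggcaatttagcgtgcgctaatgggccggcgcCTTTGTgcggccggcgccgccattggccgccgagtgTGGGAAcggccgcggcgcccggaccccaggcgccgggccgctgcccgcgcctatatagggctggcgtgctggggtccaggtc
Enpp6: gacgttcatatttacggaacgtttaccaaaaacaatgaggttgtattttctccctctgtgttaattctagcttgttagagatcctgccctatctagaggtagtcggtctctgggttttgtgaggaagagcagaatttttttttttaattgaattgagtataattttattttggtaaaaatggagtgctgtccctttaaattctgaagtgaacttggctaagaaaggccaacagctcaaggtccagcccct
Fyn: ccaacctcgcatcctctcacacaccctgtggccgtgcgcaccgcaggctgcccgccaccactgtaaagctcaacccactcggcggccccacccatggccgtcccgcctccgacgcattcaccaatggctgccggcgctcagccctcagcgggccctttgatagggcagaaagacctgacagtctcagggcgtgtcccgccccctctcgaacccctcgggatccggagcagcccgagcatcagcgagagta
Hes5, a repressor switched on by Notch, held 2 matches of the RBPJ letters, which are those read by the Notch effector, and 1 match of the SOX letters. In the other 3 windows none of these letters occurred. Among 32851 windows of 250 bases before annotated starts, 13.0% held the E-box letters, 16.5% the SOX letters and 21.6% the RBPJ letters. A match is a string of letters and not a bound site.

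Both libraries had similar depth. They held 6410 and 5347 barcodes with 23244575 and 18349132 UMIs, and kept cells had medians of 3184 UMIs in Mr1+/+ and 2951.5 in Mr1-/-. OPCs were somewhat deeper, with medians of 4577.5 and 3626 UMIs and 2578 and 2117 genes. Their single cells ranged from 1255 to 17021 UMIs in Mr1+/+ and from 1296 to 18066 in Mr1-/-. The 40 cells summed to 214025 UMIs and the 29 cells to 130372, so that 1 UMI in a summed profile equals 4.67 and 7.67 CPM (a gene's UMIs scaled to the same total in every profile). Mr1 had 139 UMIs over the whole Mr1+/+ library and 2 over the Mr1-/- library, as labelled, but it had 0 UMIs in the OPCs of both. A count of 0 allows up to 3 UMIs, or 14.0 and 23 CPM, so Mr1 in OPCs was below what this depth detects. The libraries shared 44 barcodes, and 1 OPC barcode was among them.

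The label was checked on precursor genes outside the rule. The defining markers Pdgfra, C1ql1, Neu4 and Lhfpl3 are in the rule, so their counts describe the choice. Pdgfra, the growth factor receptor, was seen in 31 of 40 and 26 of 29 cells, C1ql1, a secreted synaptic organiser, in 39 and 28, Neu4, a sialidase, in 26 and 22, and Lhfpl3, a tetraspan membrane protein, in 38 and 29. Pdgfra was seen in 0.0651% of mature oligodendrocytes in Mr1+/+ and 0% in Mr1-/-, and in 0.649% and 0.719% of astrocytes. Fibroblasts also carry it, at 347 and 521 CPM beside 1033 and 928 in OPCs. The rules for mature oligodendrocytes and astrocytes limit Pdgfra, and the fibroblast rule counts it as a marker. These values are thus partly set by the choice of cells too. A list of 30 further precursor genes was found broadly: every OPC had UMIs of 8 or more of them. The same held for 4.82% and 3.86% of mature oligodendrocytes, but for 74.4% and 73.7% of astrocytes, which also express members such as Ptprz1 (1401 and 1229 CPM) and Cspg5 (1561 and 1469 CPM). With every cell thinned to 1500 UMIs the share was 92.3% and 100% of OPCs, 38.0% and 37.4% of astrocytes, and 0.286% and 0.401% of mature oligodendrocytes.

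Most OPCs passed the rule with room. In Mr1+/+, 12 cells held all 8 rule genes, 11 held 7, 10 held 6, 5 held 5 and 2 held 4. In Mr1-/- the counts were 7, 10, 10, 2 and 0. The cells just inside were both Mr1+/+, with 2298 and 2631 UMIs, no Pdgfra, and 4 and 5 UMIs of Gpr17. Just outside, with 3 rule genes, were 4 Mr1+/+ and 3 Mr1-/- cells. Of these 7, a pair from Mr1+/+ had 4 and 7 UMIs of Gpr17 and no Pdgfra, and a pair from Mr1-/- had 9 and 67 UMIs of Acta2, the actin of smooth muscle.

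OPCs made up 0.632% of kept Mr1+/+ cells (exact binomial interval 0.452 to 0.860) and 0.549% of kept Mr1-/- cells (0.368 to 0.788). The difference was -0.0828 percentage points (Newcombe interval -0.365 to 0.209). Against the lineage they feed, they were 2.54% of OPCs and mature oligodendrocytes together in Mr1+/+ (1.82 to 3.44) and 2.79% in Mr1-/- (1.88 to 3.98), a difference of 0.249 points (-0.982 to 1.61). Both intervals include 0. Sorting and cell recovery can set such shares, and fewer cells of a type cannot be told apart from poorer recovery of it.

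A few OPCs carried transcripts of other types. By a rule of 3 or more genes of another type's marker list at 3 or more UMIs each, 3 of the 69 cells did so. A Mr1+/+ cell of 11229 UMIs held 77 of the 79 UMIs of C1qb, 39 of the 41 of P2ry12 and all 32 of Cx3cr1 in that library's OPCs, all microglial genes, and was the only OPC that Scrublet, a doublet caller, marked. A Mr1-/- cell of 6051 UMIs held 31 of 33 UMIs of Acta2 and 9 of Tagln, genes of mural cells, and another of 5422 UMIs held 9 of 10 UMIs of Reln and 3 of Syt1, which are neuronal. Separately, 2 OPCs of each library also met the rule used here for mature oligodendrocytes, with 14931 and 17021 UMIs in Mr1+/+ and 13304 and 18066 in Mr1-/-. The astrocyte rule was also met by 6 Mr1+/+ and 4 Mr1-/- OPCs, the endothelial rule by 1 of each library and the microglial rule by 1 Mr1+/+ cell. Scrublet marked none of the 4 cells with mature oligodendrocyte genes. Whether those 4 are single cells or doublets was not tested further.

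Across the marker lists of other types, the summed UMIs in OPCs were 298 and 188 for astrocytes (of 10 genes), 428 and 12 for microglia, 238 and 125 for endothelium, 79 and 113 for mural cells, 26 and 3 for fibroblasts, 81 and 60 for neurons, 150 and 81 for neuroblasts and 3 and 2 for ependyma. Of the microglial sum 407 UMIs came from 1 cell, and without the 3 cells with other types' genes the sums were 21 and 11. Of the mural sum in Mr1-/-, 64 of 113 UMIs lay in 1 cell, and without the 3 cells the mural sums were 78 and 48 and the neuronal sums 79 and 34. The defining markers Aqp4 of astrocytes (0 and 1 UMIs), Cldn5 of endothelium (0 and 3) and Ermn of late oligodendrocytes (1 and 0) are held low by the rule itself.

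OPCs were set beside mature oligodendrocytes, astrocytes and microglia. Of 2433 genes with 30 or more UMIs outside the rule, 311 (12.8%) were 2-fold or more above the highest of the 3 types, with 10 CPM added to every level. It was 20 of the 29 precursor identity genes with that many UMIs and 1 of 4 growth factor signalling genes, lists that hold no rule gene. No test is attached, since the cells were chosen by expression. The 15 genes with the widest gap were Tnr, Gng3, Fxyd6, 3110035E14Rik, Olfm2, Cacng4, Opcml, Nxph1, Ppfibp1, Sh3bp4, Fyn, 9630013A20Rik, Rtn1, Bmp4 and Brinp1, from 5.65 down to 3.98 on the log2 scale.

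Tnr, tenascin-R of perineuronal nets, was at 780 CPM in Mr1+/+ OPCs and 920 in Mr1-/- OPCs, and at most 8.70 CPM in the other 3 types. Cacng4, an auxiliary subunit of AMPA receptors, was at 280 and 376 CPM, and Olfm2, a secreted olfactomedin found in AMPA receptor complexes, at 612 and 514. Nxph1, a secreted synaptic glycoprotein, was at 206 and 276 CPM, and at most 3.15 elsewhere among the 3 types. Opcml, a GPI-anchored adhesion protein, was at 575 and 583. Each of these had a similar level in the OPCs of both libraries.

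Gng3, a G protein gamma subunit, was at 1299 and 1051 CPM, and Rtn1, a reticulon of the endoplasmic reticulum, at 1804 and 1580. Once endothelial cells and fibroblasts were included, 4 of the genes were not low everywhere else. Ppfibp1 was at 346 and 284 CPM beside 265 and 228 in endothelial cells, and Sh3bp4 at 280 and 368 beside 107 and 94.9. Fxyd6 was at 897 and 874 beside 163 and 257 in fibroblasts, and Bmp4 at 215 and 215 beside 74.9 and 88.0. Bmp4, a secreted signal of the BMP family, was seen in only 7 of 40 and 5 of 29 OPCs, and 9630013A20Rik, a long non-coding RNA gene, in 8 and 6. Both were thus found in a small share of the cells.

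**Figure D1:**
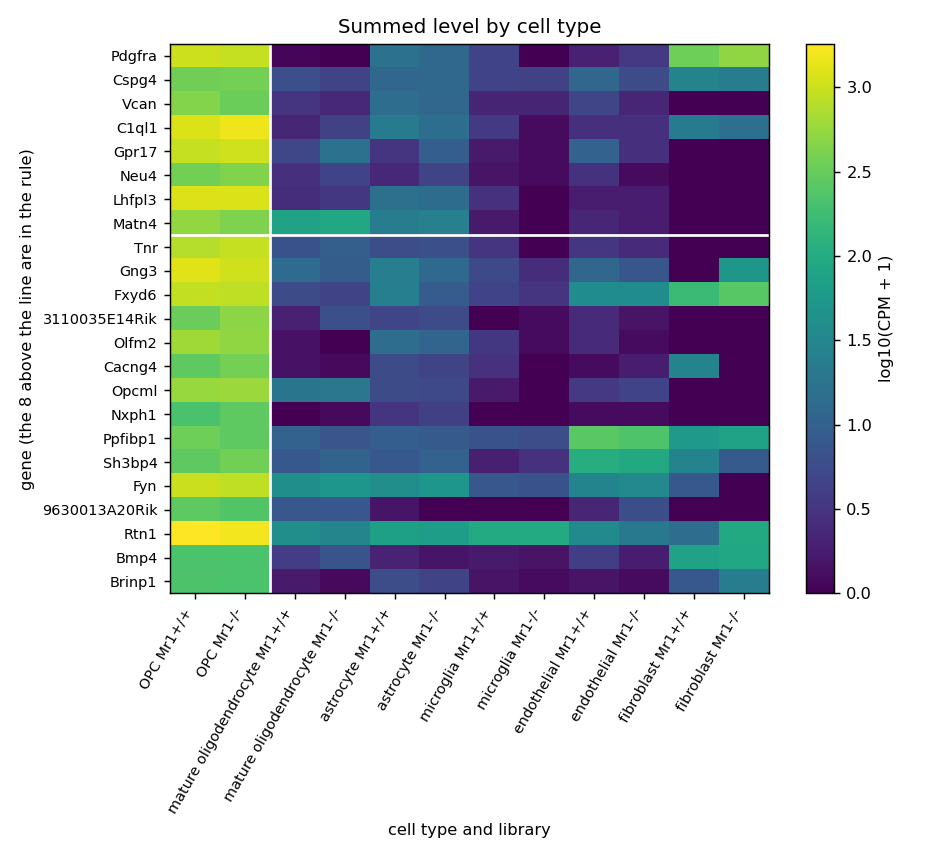
Summed level of the 8 rule genes (above the white line) and the 15 named genes (below it) in 6 cell types of both libraries, as log10(CPM + 1). The 2 OPC columns are bright in every row, and Ppfibp1, Sh3bp4 and Fxyd6 are also visible in endothelial cells or fibroblasts.

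Within the OPCs, Pdgfra parted the cells. The cells without a Pdgfra UMI but with UMIs of Bmp4, Enpp6 or Mycl, called Pdgfra-negative here, numbered 8 of 40 in Mr1+/+ (20.0%, exact binomial interval 9.05 to 35.6) and 3 of 29 in Mr1-/- (10.3%, 2.19 to 27.4). The difference of -9.66 points had an interval of -25.9 to 8.99, which includes 0. The other 32 and 26 cells are called Pdgfra-type. Of these, 1 Mr1+/+ cell had no Pdgfra UMI either. The split was chosen after the cells had been seen, so what follows describes it and tests nothing. Pdgfra-negative cells were deeper, with medians of 7746 and 13304 UMIs against 4278.5 and 3559.5, and held 32.3% and 26.8% of all OPC UMIs.

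The genes that set the Pdgfra-negative cells apart include those of the committed precursor stage. In both libraries 160 of 2439 genes (6.56%) were 2-fold or more higher in them and 305 (12.5%) were 2-fold or more lower. Of the committed precursor list, 13 genes had 30 or more UMIs, and 11 were higher in both libraries and 1, Dll3, was lower. That list holds Bmp4, Enpp6 and Mycl, which made the split, so its count is partly fixed, and 8 of the 10 members outside the split and the rule were higher. Myelin genes outside the rule were higher in 5 of 7, and the identity list was lower in 16 of 29 and higher in 1, Nkx2-2. Without the 4 cells that also met the mature oligodendrocyte rule these counts were 6 of 10, 3 of 7, and 12 of 29 lower.

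Fyn, the kinase that couples axon contact to the oligodendrocyte cytoskeleton, was not used for the split. Per 10000 UMIs of a cell, its lowest, median and highest values were 11.4, 23 and 43.6 in the 8 Mr1+/+ Pdgfra-negative cells. They were 0, 0 and 7.06 in the 32 Pdgfra-type cells. These ranges did not overlap, but Fyn is among the genes picked below for the widest gap. In Mr1-/- the 3 Pdgfra-negative cells had 13.8, 25.5 and 36.8, and the Pdgfra-type cells reached 24.6 in 1 cell with a median of 0, so that the ranges met there. Summed, Fyn went from 159 to 2709 CPM in Mr1+/+, a ratio of 17.1 (11 to 27.6), and from 147 to 2857 in Mr1-/-, a ratio of 19.5 (11.1 to 36.9). In mature oligodendrocytes it was at 40.3 and 50.5 CPM.

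Bcas1, a marker of early myelinating cells, went from 193 to 2130 CPM and from 367 to 2486. Sirt2, a tubulin deacetylase, went from 393 to 6302 and from 713 to 6144, and Cd9, a tetraspanin, from 1579 to 9330 and from 1740 to 7858. Without the 4 cells that also met the mature oligodendrocyte rule, the Pdgfra-negative levels were 1780 and 3034 CPM for Bcas1, 2509 and 2482 for Sirt2 and 9117 and 17926 for Cd9. Enpp6, a choline phosphodiesterase that helped define the split, had 0 UMIs in all Pdgfra-type cells and reached 1217 and 914 CPM in the others. Gpr17, a receptor of the transient stage that is in the rule, was at 455 and 1941 CPM in Mr1+/+ and at 587 and 2343 in Mr1-/-. It was seen in 26 of 32 and 21 of 26 Pdgfra-type cells as well, so it graded across the states and did not part them.

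The 15 genes with the widest higher gap outside the split were Chn2, 9530059O14Rik, Sept5, Fyn, Pdcd4, Cnp, Tspan17, Epb41l2, Slc44a1, Dynll2, Ust, Dbndd2, Mpzl1, Polr3e and Tpd52. Their levels in mature oligodendrocytes differed. Cnp, a myelin phosphodiesterase, went from 214 to 3767 CPM and from 294 to 4601, and mature cells had 4624 and 4486. Without the 4 cells that also met the mature rule, Cnp in the Pdgfra-negative cells was at 1511 and 2482 CPM. Dbndd2 went from 48.3 to 522 and from 21.0 to 686, and mature cells had 3047 and 3322. Sept5, a septin, went from 27.6 to 753 and from 31.5 to 1057, while mature cells had only 7.61 and 12 CPM. Pdcd4, a translation repressor, had 855 and 1314 CPM in the Pdgfra-negative cells and 28.8 and 33.9 in mature cells. Chn2, a Rac GTPase-activating protein, had 1173 and 1372 CPM in Pdgfra-negative cells and 412 and 388 in mature cells. Without the 4 cells Chn2 was at 620 and 276 CPM, the latter from 1 UMI, and Sept5 at 944 and 1103. Slc44a1, a choline transporter, was at 1405 and 1486 beside 725 and 692.

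**Figure D2:**
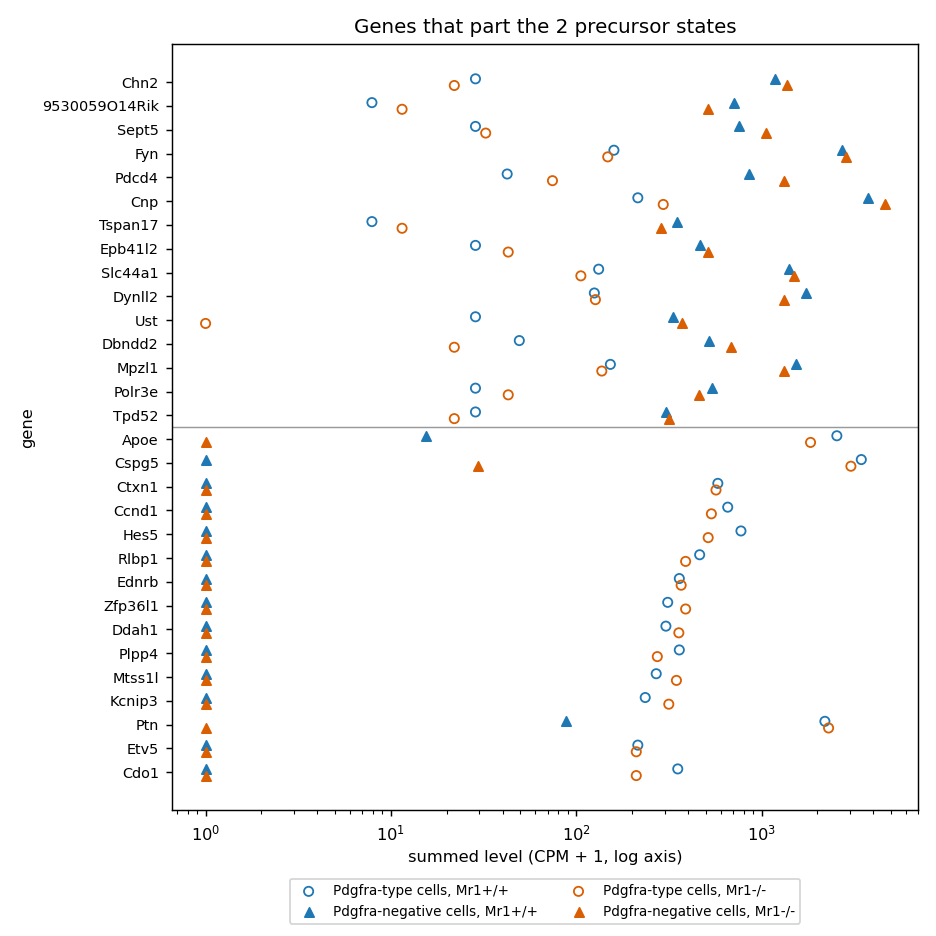
Summed level (CPM + 1, log axis) of the 15 named genes higher in Pdgfra-negative OPCs (above the line) and the 15 lower in them (below it). Open circles are Pdgfra-type cells and triangles Pdgfra-negative cells, blue for Mr1+/+ and orange for Mr1-/-. Triangles lie right of the circles for each gene above the line and left of them for each gene below it, and symbols at 1 are sums of 0 UMIs.

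Myelin transcripts varied widely among the Pdgfra-negative cells. Mbp, which compacts myelin, had 0, 0, 0, 2, 3, 35, 140 and 204 UMIs in the 8 Mr1+/+ cells and 0, 28 and 108 in the 3 Mr1-/- cells, in order of depth. The deepest cells had most, and Mbp was seen in 5 of 8 and 2 of 3 cells. Summed, Mbp was at 75.9 CPM in Pdgfra-type cells and 5563 in Pdgfra-negative cells of Mr1+/+, and at 31.5 and 3886 in Mr1-/-. Mature cells had 6553 and 6262, and microglia 54.6 and 26.7. Mobp, a late myelin gene at 1544 and 1469 CPM in mature cells, had 0 UMIs in all 11 Pdgfra-negative cells. That allows at most 43.5 and 85.7 CPM.

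The 4 cells that also met the mature oligodendrocyte rule were all Pdgfra-negative, and were the deepest of them. Without these 4, the Pdgfra-negative cells numbered 6 and 1, and 87 genes in place of 160 were 2-fold higher in both libraries and 272 in place of 305 lower. The Mr1-/- side is then 1 cell of 3626 UMIs, in which 1 UMI equals 276 CPM, so that 0 or 1 UMI can decide on which side of 2-fold a gene falls. Fyn was then 19.2 and 9.39 times the Pdgfra-type level. Mbp kept 40 UMIs in the 6 Mr1+/+ cells, at 1079 CPM, and had 0 in the Mr1-/- cell, and Mobp still had 0 UMIs in both.

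The 15 genes with the widest lower gap were Apoe, Cspg5, Ctxn1, Ccnd1, Hes5, Rlbp1, Ednrb, Zfp36l1, Ddah1, Plpp4, Mtss1l, Kcnip3, Ptn, Etv5 and Cdo1. Cspg5, neuroglycan C, was in every Pdgfra-type cell, with lowest, median and highest values of 12.9, 36.5 and 75.8 per 10000 UMIs in Mr1+/+ and 4.10, 30.3 and 62.2 in Mr1-/-. In the 11 Pdgfra-negative cells Cspg5 had 1 UMI in all. The ranges did not overlap in either library, but Cspg5 was picked for its wide gap. Summed, it was at 3448 CPM against 0 in Mr1+/+, which is at least 79.3-fold lower with the 0 set to 3 UMIs, and at 3030 against 28.6 in Mr1-/-. Hes5, the Notch target whose promoter is shown above, was at 772 CPM in Pdgfra-type cells of Mr1+/+, in 18 of 32 cells, and at 514 in Mr1-/-, in 10 of 26. No Pdgfra-negative cell had a Hes5 UMI, at least 17.8-fold and 5.99-fold lower.

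Ccnd1, the cyclin that takes growth factor signals into the cell cycle, went from 655 CPM to 0 and from 535 to 0, at least 15.1-fold and 6.24-fold lower. Ednrb, the endothelin receptor, went from 359 to 0 and from 367 to 0, and Rlbp1, a retinoid carrier, from 462 to 0 and from 388 to 0. Ptn, the growth factor pleiotrophin, went from 2193 to 86.9 and from 2296 to 0. Its receptor Ptprz1 went from 2559 to 232 and from 2852 to 314. Ligand and receptor were thus both lower in the Pdgfra-negative cells of each library. Apoe, the lipid carrier, was at 2545 and 1835 CPM in Pdgfra-type cells, and had 1 UMI over the 11 Pdgfra-negative cells. Mature oligodendrocytes of the same libraries had Apoe at 2778 and 2920 CPM.

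**Figure D3:**
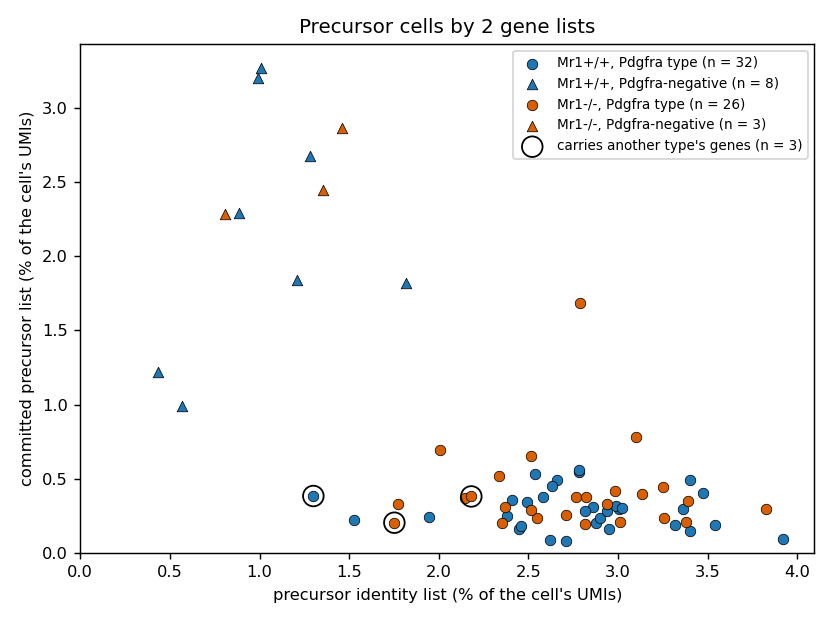
Each of the 69 OPCs by the share of its UMIs in the precursor identity list (x axis, %) and the committed precursor list (y axis, %). Triangles are Pdgfra-negative cells, circles Pdgfra-type cells, blue Mr1+/+, orange Mr1-/-, and rings mark the 3 cells with another type's genes. The triangles lie between 0.988% and 3.27% on the y axis, and all circles but 1 lie below 1%. The committed list holds Bmp4, Enpp6 and Mycl, which made the split, so this gap is partly fixed.

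The plot of both lists per cell shows few cells between the states, but the committed list holds Bmp4, Enpp6 and Mycl, which made the split. The gap on that axis is thus partly fixed. The committed list took 0.988%, 2.07% and 3.27% of UMIs (lowest, median, highest) in Mr1+/+ Pdgfra-negative cells and 0.0821%, 0.289% and 0.561% in Pdgfra-type cells. In Mr1-/- it took 2.29%, 2.45% and 2.87%, and 0.197%, 0.340% and 1.68%. The cell at 1.68%, of 2438 UMIs, was counted as Pdgfra-type by 1 Pdgfra UMI, and also had 1 UMI of Bmp4, 2 of Mycl, 6 of Fyn and 5 of Gpr17. UMIs of 3 or more list members were present in 35 of 40 OPCs (87.5%, 73.2 to 95.8) and 29 of 29, but also in 92.4% and 98.0% of mature oligodendrocytes, 27.6% and 25% of astrocytes and 39.0% and 36.3% of microglia. At 1500 UMIs a cell these were 66.7% and 82.1% of OPCs, 70.2% and 71.1% of mature cells, 6.99% and 3.21% of astrocytes and 8.31% and 6.48% of microglia.

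Among transcription factors of the lineage, Olig1, Olig2 and Nkx2-2 differed between the states in the same direction in both libraries, and Sox10 did not. Olig1, which the lineage needs for maturation, was at 5517 CPM in Pdgfra-type cells and 1898 in Pdgfra-negative cells of Mr1+/+, and at 5200 and 1457 in Mr1-/-. Olig2, its partner that sets lineage fate, went from 1476 to 768 and from 1436 to 571. Nkx2-2, a factor of the switch to differentiation, went the other way, from 159 to 536 and from 199 to 714. Sox10, active at all stages, had ratios of 0.661 and 1.12, which differ in direction. Without the cells that also met the mature rule, Sox10 was at 0.459 in Mr1+/+ and had 0 UMIs in the 1 remaining Mr1-/- cell. Between the libraries, with all OPCs summed, the Mr1-/- to Mr1+/+ ratio was 0.965 (0.866 to 1.07) for Olig1, 0.965 (0.787 to 1.18) for Olig2 and 1.22 (0.985 to 1.5) for Sox10.

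Matrix and adhesion lists held more lower genes than all genes together, of which 12.5% were lower and 6.56% higher in both libraries. Of 13 matrix genes with 30 or more UMIs outside the rule, 8 were lower in Pdgfra-negative cells in both libraries and 1, Col9a3, was higher. Cspg4, the NG2 proteoglycan that is in the rule, went from 503 to 43.5 CPM and from 482 to 85.7, and Xylt1, which starts the sugar chains of proteoglycans, from 345 to 0 and from 325 to 28.6. Tnr did not follow: it went from 579 to 1202 and from 786 to 1286. Of 13 synapse adhesion genes outside the rule, 8 were lower in both libraries and 0 higher. Without the 4 cells that also met the mature rule, 5 matrix and 6 synapse adhesion genes were lower. C1ql1, a rule gene, went from 1607 to 377 and from 1877 to 429, and Cntn1, contactin 1, from 972 to 58.0 and from 860 to 200.

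Receptor lists were small, and their counts are read beside the same 12.5% and 6.56%. Of 5 glutamate receptor genes, 3 were lower in both libraries and 0 higher. Gria2, the AMPA subunit that limits calcium entry, went from 372 to 261 CPM and from 325 to 57.2, and Grm5, a metabotropic receptor, had 152 and 136 CPM in Pdgfra-type cells and 0 in the others. Of 4 genes of AMPA receptor partners, 3 were lower in both. Of 4 growth factor signalling genes, 3 were lower in both and 0 higher. Ntrk2, the receptor of brain-derived neurotrophic factor, went from 428 to 43.5 and from 440 to 57.2. The thyroid hormone receptor Thra went the other way, from 359 to 1405 and from 451 to 1429. Of 4 cholesterol synthesis genes 3 were higher in the Pdgfra-negative cells of both libraries, among them Hmgcs1, the enzyme that makes HMG-CoA, with ratios of 3.27 and 9.81 on 46 UMIs in all. Without the 4 cells that also met the mature rule, 0 of the 4 were higher in both.

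Few OPCs showed division. UMIs of 3 or more of 24 cell division genes were present in 4 of 40 Mr1+/+ cells (10.0%, 2.79 to 23.7) and 1 of 29 Mr1-/- cells (3.45%, 0.0873 to 17.8), against 0.651% and 0.0989% of mature oligodendrocytes. All 5 were Pdgfra-type. At 1500 UMIs a cell the shares were 2.56% and 0%. The summed list had 70 and 14 UMIs, a ratio of 0.328 (0.171 to 0.588), and 35 of the 70 came from 1 Mr1+/+ cell of 8016 UMIs with 10 UMIs of Pclaf, 5 of Pcna, 4 of Mcm6 and 3 of Mki67. Without that cell the ratio was 0.632 (0.314 to 1.20).

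Between the libraries the OPC profiles were close. Of 2443 genes with 30 or more UMIs, 22 (0.901%) were 2-fold or more higher in Mr1-/- and 57 (2.33%) 2-fold or more lower, with 10 CPM added. The median log2 ratio was 0.00, with 1224 genes above 0 and 1219 below. None of the 29 precursor identity genes passed 2-fold in either direction. Microglial genes were among those far from 0, such as C1qa with 58 and 2 UMIs. The counts without the 3 cells with other types' genes were 21 and 50.

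**Figure D4:**
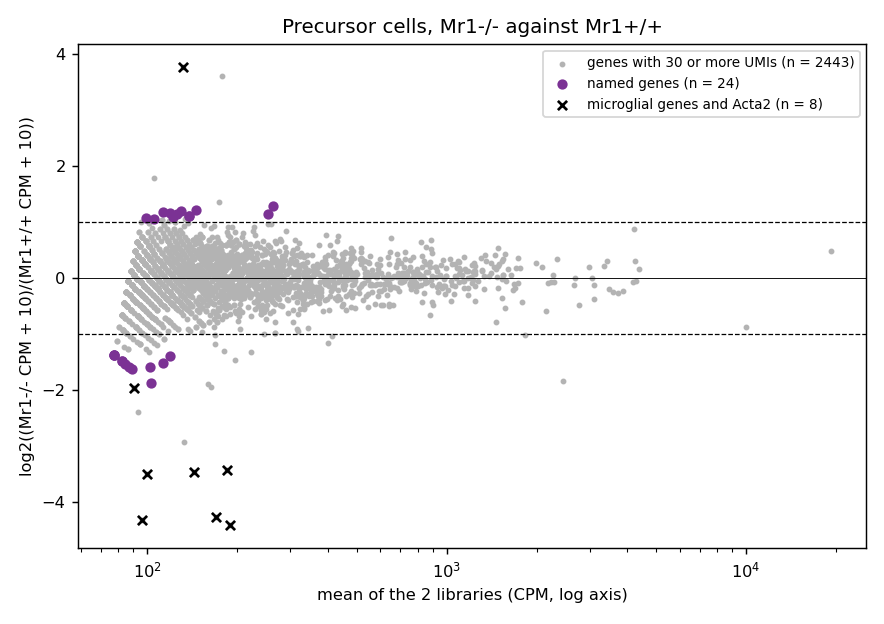
Log2 ratio of Mr1-/- to Mr1+/+ (10 CPM added) against the mean CPM (log axis) for 2443 genes in summed OPCs. Dashed lines mark 2-fold, purple points the 24 named genes and crosses 7 microglial genes and Acta2. Most points lie between the lines, and all 8 crosses lie outside them.

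The rule for naming required 10 or more cells with the gene, no cell with over 25% of its UMIs, and a level not far below that of other types. It left 2221 genes, of which 17 were past 2-fold upward and 31 downward. The 12 highest were Ttc3, Ten1, Rbm42, Eif3e, Bcl7a, Ankrd11, Ap4s1, Gpatch8, Elfn2, Mesd, Mrps5 and Golph3. Ttc3, a ubiquitin ligase, had 32 UMIs in 25 of 40 Mr1+/+ cells and 49 UMIs in 21 of 29 Mr1-/- cells, a ratio of 2.51 (1.58 to 4.06). Ankrd11, a chromatin regulator, had 33 UMIs in 21 cells and 46 UMIs in 22 cells, a ratio of 2.29 (1.43 to 3.69). In mature oligodendrocytes the same genes had ratios of 0.949 (0.836 to 1.08) and 0.986 (0.893 to 1.09). No upward gene stayed past 2-fold under all 10 alternative settings that can change a gene's value, and Ttc3 lost its call only with cells thinned to 1500 UMIs.

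The 12 lowest were Nme1, Phf20l1, Coq2, Adgrg1, Lamp2, P4ha1, Slc30a5, 1700020I14Rik, Eif4g1, Caml, Ate1 and Rftn2. Nme1, a nucleoside diphosphate kinase, had 36 UMIs in 22 Mr1+/+ cells and 5 UMIs in 4 Mr1-/- cells, a ratio of 0.228 (0.0698 to 0.583). It was also lower in Mr1-/- in mature oligodendrocytes, at 0.645 (0.512 to 0.809), and in astrocytes, at 0.686 (0.471 to 0.983), but not in endothelial cells, at 1.01 (0.753 to 1.35). Its close copy Nme2 can share its reads. P4ha1, a prolyl hydroxylase of collagen, had 37 and 7 UMIs, a ratio of 0.311 (0.117 to 0.706), and was at 0.694 (0.591 to 0.814) in mature oligodendrocytes and 0.707 (0.587 to 0.850) in endothelial cells. For both genes the direction was thus not confined to OPCs.

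Coq2, an enzyme of coenzyme Q synthesis, had 34 and 6 UMIs, a ratio of 0.290 (0.0994 to 0.698), with 0.909 (0.796 to 1.04) in mature oligodendrocytes. Lamp2, a lysosomal membrane protein, had 28 and 5 UMIs, a ratio of 0.293 (0.0884 to 0.769), with 1.06 (0.971 to 1.16) in mature cells. Eif4g1, a scaffold of translation initiation, had 38 and 8 UMIs, a ratio of 0.346 (0.139 to 0.752), with 0.883 (0.762 to 1.02). By value, Nme1, P4ha1, Coq2, Lamp2 and Eif4g1 stayed past 2-fold under the same 10 settings, but they kept 30 or more UMIs in only 6, 7, 6, 5 and 8 of them. At a floor of 60 UMIs none of the 5 was included. Each rests on 5 to 8 UMIs in the Mr1-/- OPCs.

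Lists were compared by the ratio of their summed UMIs, in which abundant members weigh most. The 30 identity genes had 4593 and 2985 UMIs, a ratio of 1.07 (1.02 to 1.12), and 1.03 (0.983 to 1.09) among Pdgfra-type cells. Of 29 members with 30 or more UMIs, 20 were above 0 and 9 below on the log2 scale, with a median of 0.07. Tmem100, a small membrane protein, was highest with 137 and 131 UMIs, 1.57 (1.23 to 2.01), Fabp7, a fatty acid carrier, had 148 and 133 UMIs, 1.48 (1.16 to 1.88), and Cdo1, cysteine dioxygenase, was lowest with 51 and 20 UMIs, 0.644 (0.364 to 1.10). In astrocytes, which share Tmem100 and Fabp7, their ratios were 0.895 and 1.05.

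The committed precursor list gave opposite directions with and without the Pdgfra-negative cells. Over all OPCs the ratio was 0.888 (0.827 to 0.952), and over Pdgfra-type cells alone 1.22 (1.06 to 1.40). The Pdgfra-type ratio includes the Mr1-/- cell with 1.68% of its UMIs in this list, which 1 Pdgfra UMI placed there. The highest Mr1+/+ Pdgfra-type cell was at 0.561%. The ratio without that Mr1-/- cell was not calculated, so how far the opposite direction rests on it is not known. The myelin list was at 0.786 (0.724 to 0.853) over all OPCs. Among Pdgfra-type cells it was at 0.838 (0.631 to 1.11), an interval that includes 1. Over OPCs with none of the 8 markers of other types it was at 0.301, and without the deepest cell of each library at 0.661. Pdgfra-negative cells, which hold most transcripts of both lists, were 20.0% and 10.3% of the OPCs and held 32.3% and 26.8% of their UMIs. Of 8 myelin genes 2 were 2-fold or more lower, beside 2.33% of all genes. These were Mog, at 35 and 3 UMIs, which the rule for OPCs limits, and Tspan2, at 31 and 8. Of the 35 Mog UMIs, 29 lay in 1 cell. For the whole myelin list, 1 cell held 835 of 1825 UMIs in Mr1+/+ and 1 cell held 501 of 874 in Mr1-/-. In the committed list Tmem163, a zinc transporter, was lowest with 120 and 32 UMIs, 0.438 (0.287 to 0.651), with 28.9% of its UMIs in 1 cell.

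**Figure D5:**
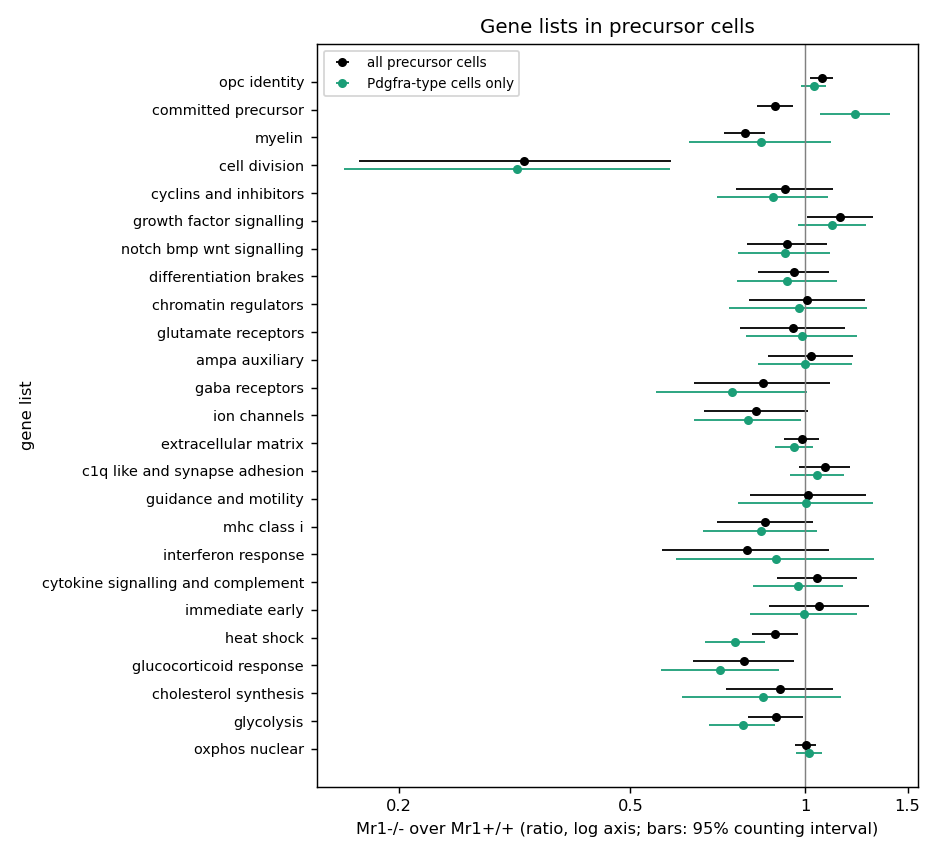
Ratio of summed UMIs, Mr1-/- over Mr1+/+ (log axis), for 25 gene lists in all OPCs (black) and in Pdgfra-type OPCs (green), with 95% counting intervals. Most intervals include 1; the committed precursor list lies on opposite sides of 1 in the 2 colours, and cell division lies at 0.328.

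Chaperone and glycolysis lists were lower in Mr1-/- over all OPCs and among Pdgfra-type cells, which are part of all OPCs. In Pdgfra-negative cells, only 3 of them in Mr1-/-, both lists were higher in Mr1-/-. Heat shock genes were at 7519 CPM in Mr1+/+ and 9058 in Mr1-/- there, and glycolysis genes at 3578 and 4372. Among Mr1-/- OPCs, 1 cell held 208 of 734 heat shock UMIs, and 1 cell held 112 of 503 glycolysis UMIs. Heat shock genes had a ratio of 0.889 (0.811 to 0.973) over all OPCs and 0.757 (0.672 to 0.853) among Pdgfra-type cells, with 8 of 9 members below 0. Hspa5, the chaperone of the endoplasmic reticulum, had 89 and 28 UMIs, 0.516 (0.325 to 0.798), and Hspa8, the constitutive cytosolic chaperone, 254 and 115 UMIs, 0.743 (0.591 to 0.930), while Hsp90ab1 was at 1.11 (0.927 to 1.34). Glycolysis genes had 0.889 (0.796 to 0.992) and 0.780 (0.684 to 0.889), with 7 of 10 below 0, Gapdh at 0.867 (0.711 to 1.05) and Tpi1 at 0.534 (0.270 to 0.996). Glucocorticoid-induced genes had 0.784 (0.641 to 0.956) and 0.715 (0.564 to 0.900), with Mt1, a metallothionein, at 91 and 41 UMIs. None of these members passed 2-fold. The glucocorticoid list was also lower in Mr1-/- in mature oligodendrocytes, at 0.610 (0.598 to 0.622), microglia, at 0.745, and astrocytes, at 0.915. The heat shock list was also lower in mature oligodendrocytes, at 0.944, and microglia, at 0.859, but not in astrocytes, at 1.10.

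Several receptor, matrix and energy lists were close to 1. Further from it were GABA receptors, at 0.846 (0.643 to 1.11), and ion channels, at 0.824 (0.670 to 1.01). Among Pdgfra-type cells these were at 0.749 (0.553 to 1.01) and 0.798 (0.644 to 0.985). The ratio was 1.15 (1.01 to 1.31) for growth factor signalling, where Ptprz1 supplies 387 of 563 and 283 of 394 UMIs, 0.953 (0.773 to 1.17) for glutamate receptors, 1.02 for AMPA receptor partners, 1.08 for synapse adhesion, 0.986 (0.919 to 1.06) for matrix and 1.0 (0.961 to 1.04) for the nuclear genes of oxidative phosphorylation. Of 16 matrix genes 1 was 2-fold or more lower, beside 2.33% of all genes. This was Sparc, at 52 and 3 UMIs, of which 63.6% lay in 1 cell, and microglia have it at 4083 and 4040 CPM. Among 4 immediate early genes Ier3 was highest at 14 and 19 UMIs, 2.23 (1.06 to 4.8), and Jund had 51 and 50 UMIs, 1.61 (1.07 to 2.43).

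Class I presentation, the pathway to which Mr1 belongs, was measured on few UMIs in OPCs. Its level was 1509 and 1289 CPM, beside 774 and 753 in mature oligodendrocytes. Astrocytes had 1314 and 1260 CPM and microglia 4088 and 4240. The list of 24 genes had 323 and 168 UMIs, a ratio of 0.854 (0.704 to 1.03). B2m, the light chain that MR1 and all class I molecules need, had 28 and 16 UMIs, 0.938 (0.474 to 1.79), and the classical heavy chains H2-K1 and H2-D1 had 15 and 9 and 17 and 7 UMIs. Pdia3, a disulfide isomerase of the loading complex, was lowest with 84 and 29 UMIs, 0.567 (0.358 to 0.874). Class II genes had 4 and 1 UMIs in all, and the interferon list 118 and 57, a ratio of 0.793 (0.568 to 1.10). With so few UMIs, most single genes of these lists could not be compared at this depth.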

How the data were processed

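Each deposited matrix holds whole-number UMI counts per gene and barcode, with no normalisation. Cell Ranger 3.1.0 is named in the matrix header and Cell Ranger 5.1.0 in the submitters' processing notes, which also name STAR and mm10. The annotation release and the rule that kept barcodes are not given in the sources used here. OPCs and 5 other types were taken by marker rules of the same form, and a cell that met several rules counts in each. UMIs were summed per library and type, divided by the total and given as CPM. Log2 ratios had 10 CPM added and used genes with 30 or more UMIs, and 2-fold was the threshold. With 1 library per genotype no test was made. Intervals are exact Poisson, binomial (Clopper-Pearson) or conditional binomial, or Newcombe for differences of shares, at 95%; they cover counting error only.

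Genes named between libraries were the 12 highest and 12 lowest past 2-fold that were seen in 10 or more OPCs, had at most 25% of their UMIs in 1 cell and reached 0.2 of their CPM in the highest other type. Genes of the mitochondrial genome, ribosomal protein and haemoglobin genes, and Xist, Tsix and Y-linked genes were not eligible. Against other types the 15 widest gaps were named, and within lists the members with most UMIs and the extreme ratios. The members and gene lists were chosen with earlier results of these data known. The Pdgfra-negative split, its 15 genes each way, the rule for cells with other types' genes and further genes named were chosen after the values were seen. Scrublet (expected rate 0.05) marked doublets, which were kept. Thinning drew 1500 UMIs per cell and left out 1 OPC of each library. Calculations were tested on simulated data. Promoter sequences are from the RefSeq table on GRCm38.p6. Reads of near-identical genes, such as Nme1 and Nme2, H2-K1 and H2-D1, and Gapdh and its pseudogenes, may be split. Tools were Python 3.11.15, NumPy 2.4.6, SciPy 1.17.1, pandas 2.3.3, scanpy 1.11.5 and matplotlib 3.10.9. Alternatives varied the marker cuts, depth, added CPM, UMI floor, scaling, doublets and cells used.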

Additional observations from a re-analysis of the deposited data

Results flagged for a closer look

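Some ratios of Mr1-/- to Mr1+/+ lay on opposite sides of 1 in OPCs and in another cell type, with counting intervals that exclude 1 in both. None of these differences was tested, since each genotype had 1 library. Ankrd11 was at 2.29 in OPCs and 0.858 in microglia, and Gpatch8, with 18 and 25 UMIs in OPCs, was at 2.28 in OPCs and 0.814 in astrocytes. The precursor identity list was at 1.07 in OPCs, 0.944 in astrocytes and 0.904 in microglia. The myelin list was at 0.786 in OPCs and 1.02 in mature oligodendrocytes, but it was also lower in astrocytes, at 0.797, and microglia, at 0.689. Growth factor signalling was at 1.15 in OPCs, 0.958 in mature oligodendrocytes and 0.916 in astrocytes. Among Pdgfra-type OPCs alone it was at 1.11 (0.973 to 1.27), an interval that includes 1. Heat shock genes were at 0.889 in OPCs and 1.10 in astrocytes. They were lower in Mr1-/- in mature oligodendrocytes too, at 0.944 (0.934 to 0.954), and in microglia, at 0.859 (0.842 to 0.877). Glycolysis genes were at 0.889 in OPCs, 1.09 in mature oligodendrocytes, 1.04 in astrocytes and 1.07 in microglia.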

How the results depend on the processing

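The OPC share was 0.427% of Mr1+/+ and 0.417% of Mr1-/- cells when no marker of another type was allowed. With cells thinned to 1500 UMIs before the rule it was 0.538% and 0.381%, so the gap between the libraries varied with the setting. Genes past 2-fold between the libraries, 22 higher and 57 lower, became 5 and 25 with 50 CPM added, 133 and 237 with a floor of 15 UMIs, 2 and 15 with 60 UMIs, and 6 and 15 with cells thinned to 1500 UMIs. The lower count was 91 with equal weight per cell, 37 without any marker of another type and 32 in Pdgfra-type cells without those carrying other types' genes. The share of calls that were higher was 27.8% in the main setting, 16.7% with 50 CPM and 11.8% with 60 UMIs. Between states, 160 higher and 305 lower genes became 49 and 65 of 571 tested in thinned cells, where fewer genes reach the floor, and the 160 became 87 without cells that also met the mature rule. The share with committed markers was 100% in Mr1+/+ with 2 or more members, and 66.7% and 82.1% in thinned cells, where division markers gave 2.56% and 0%. Mrps5 changed direction in thinned cells (log2 -1.21), as did the committed list in Pdgfra-type cells (1.22, and 1.28 without cells carrying other types' genes); the cause was not tested. Over 24 named genes and the 10 settings that can change a gene's value, 186 of 240 values kept their call, 53 did not pass 2-fold and 1 reversed. Over 25 lists and 9 settings, 194 of 225 moved by less than their counting interval, 29 moved more and 2 reversed. No paired analysis was possible because each genotype has 1 library. Depth limits genes under 30 UMIs, where 1 UMI is 4.67 or 7.67 CPM.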

Other observations

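Other gene groups are given here as values between the precursor states, with no test. Counts here and in the next paragraph are read beside all genes, of which 6.56% were higher and 12.5% lower in both libraries. Guidance genes were higher in Pdgfra-negative cells for 2 of 3 with 30 or more UMIs, and for 1 of 3 without the cells that also met the mature rule. Plxnb3, a semaphorin receptor, went from 34.5 to 246 CPM in Mr1+/+ and from 31.5 to 229 in Mr1-/-, and Sema5a, a semaphorin, from 34.5 to 145 and from 73.4 to 286. Of the Notch ligands, Dll3 went from 186 to 14.5 and from 178 to 28.6. Without the cells that also met the mature oligodendrocyte rule, the 1 remaining Mr1-/- cell held 1 UMI of Plxnb3, 0 of Sema5a and 1 of Dll3.

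Cdk4, the partner kinase of cyclin D, went from 372 to 826 CPM and from 398 to 972, opposite to Ccnd1, but the same remaining Mr1-/- cell held 1 UMI of Cdk4. Cryab, a small heat shock protein, went from 786 to 2130 and from 692 to 2086, and among 9 chaperone genes it alone was 2-fold higher in both libraries. The immediate early genes Jun and Jund were lower in both, with ratios of 0.217 and 0.188 for Jun and 0.228 and 0.114 for Jund. Without the cells that also met the mature rule, these were 0.135 and 0.907 for Jun and 0.255 and 1.10 for Jund. The remaining Mr1-/- cell held 1 UMI of Jun and 2 of Jund, so the lower level there was not kept. Of 51 nuclear genes of oxidative phosphorylation, 1 was 2-fold higher in both libraries, Atp5e, and 0 were lower.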
